A study of Mus musculus with 12 samples.

Results

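Uninjected mouse embryos served as the controls of both morpholino experiments of the study, and they give a view of the normal mid-2-cell transcriptome. They were chosen by their labels as the arrays marked as not injected, which are 6 of the 12 arrays: 3 from the experiment with Oct4-MO, a morpholino against the pluripotency factor Oct4, and 3 from the experiment with Ccna2-MO, a morpholino against cyclin A2. They are called Oct4-MO controls and Ccna2-MO controls below, after the experiment they came from. The question asked of them was which genes had bright or dark probe sets in normal embryos and what differed between the embryos of the 2 experiments. Both groups were wild type and without any morpholino. The embryos came from superovulated F1 (C57BL6xDBA/2) females of 3 to 5 weeks mated with wild type males. They were recovered as 1-cell embryos 17 h after hCG, freed of cumulus cells with hyaluronidase, cultured in Human Tubal Fluid with serum supplement, and collected 43 h after hCG. Each array held a pool of 20 embryos, mixed from several females, and RNA equal to that of 10 embryos went through 2 rounds of amplification. A pool mixes male and female embryos, and a lower level of an mRNA in every embryo cannot be told apart from its absence in some of them. The study's supplement counts the pools of each array set as separate experiments, but the sources used here do not say if they came from separate days, and the p-values cover no more than the variation among these pools. The experiment and any difference in embryo collection, amplification or hybridisation between the experiments cannot be told apart.

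The 2-cell stage is where the mouse embryo passes from maternal to embryonic control. The oocyte lays down a store of mRNA and stops transcribing before it matures, and much of this store is deadenylated and degraded after fertilization. The major wave of embryonic genome activation then starts at the 2-cell stage with genes for RNA processing and translation, together with gene families and repeats whose expression is largely restricted to this stage.

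The measure is the linear intensity of a probe set after normalization by the authors. The median probe set stood at 22.7 to 24.8, and 40.5 to 42.7% of the probe sets on an array lay under 16. These ranges were narrow, but the 2 groups did not overlap in either respect. The median was 23.95 to 24.8 in Oct4-MO controls and 22.70 to 22.74 in Ccna2-MO controls. The share under 16 was 40.5 to 41.1% and 42.2 to 42.7%, and the share over 500 was 9.75 to 10.17% and 10.23 to 10.75%. A probe set is called bright here when it was over 500 on all 6 arrays and dark when it was under 16 on all 6. Of 44937 probe sets, 3505 were bright (7.80%) and 11366 were dark (25.3%). Each of 18163 genes was then represented by its brightest probe set among those annotated to that gene alone. On this basis 2126 genes were bright (11.7%), 3002 were dark (16.5%) and 13035 lay between. A dark probe set does not show that an mRNA is missing. Of the 1600 bright genes with more than 1 probe set, 216 had another probe set that was dark. Probe sets also differ in how well they hybridise, so an order of intensities is an order of signals and not of mRNA amounts.

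The probe set of highest mean level, at 7499 to 8373, was annotated to both Omt2b and Omt2a and stood for neither gene. Among the genes as represented here, the one with the brightest probe set was a maternal factor. Spin1, which encodes the abundant maternal chromatin reader spindlin, had values of 6403, 6736 and 6621 in Oct4-MO controls and 6972, 7221 and 7020 in Ccna2-MO controls. Dppa3, the maternal factor Stella that protects the maternal genome from demethylation, ranged from 5823 to 6513. Npm1, the nucleolar histone chaperone nucleophosmin, ranged from 5735 to 6504. The mitochondrially encoded ND5, a subunit of respiratory complex I, ranged from 6505 to 7194 and had overlapping groups. The other genes among the 20 brightest were Hnrnpab, Cdk16, AY036118, Tubb4b, Zfand5, Snrpg, C86187, Odc1, Eif2s2, Ccdc6, Omt2b, AF067061, Zbed3, Gatad2a, Khdc1b and Gpbp1. They include a translation initiation subunit (Eif2s2), a spliceosome core protein (Snrpg), the enzyme that starts polyamine synthesis (Odc1) and a subunit of the NuRD chromatin remodelling complex (Gatad2a).

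**Figure D1:**
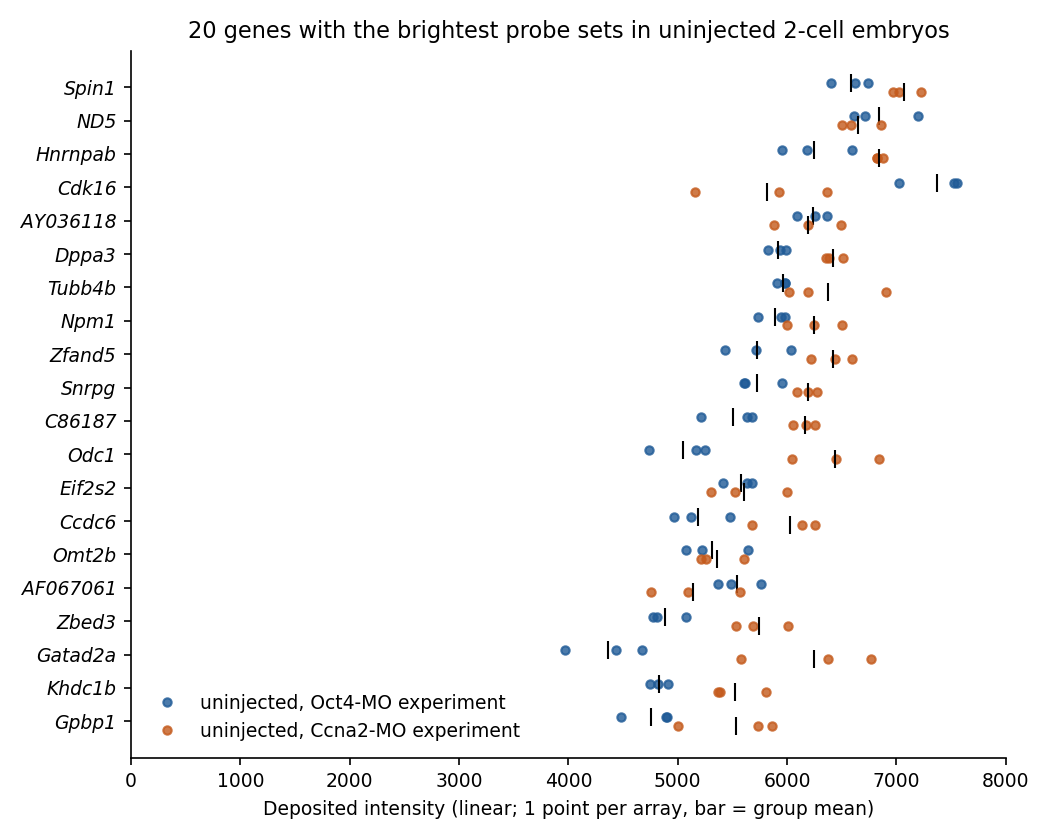
Deposited intensity (linear axis from 0) of the 20 genes with the brightest probe sets, 1 point per array, with blue for the 3 uninjected pools of the Oct4-MO experiment, orange for the 3 of the Ccna2-MO experiment and a black bar for each group mean. Probe sets annotated to several genes are not shown. The groups overlap for genes such as ND5 and Omt2b and lie apart for Gatad2a, whose values were 3973 to 4672 and 5582 to 6768.

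Transcripts made during oocyte growth were still strongly represented. Of 34 measured zona pellucida and oocyte-specific genes, 16 were bright and 0 were dark, against 11.7% and 16.5% of all genes. Omt2b and Omt2a, a pair of related oocyte transcripts whose probe sets may share target sequence, ranged from 5074 to 5644 and from 4471 to 4798. Oosp1, an oocyte-secreted protein, ranged from 3651 to 4508, and the oocyte growth factor Bmp15 from 2567 to 3558. Its partner Gdf9 was at 362 to 459, and of the zona pellucida genes Zp2 was at 314 to 409, Zp3 at 193 to 523 and Zp1 at 51.3 to 132. The oocyte transcription factor Figla had a weak signal, at 33.3 to 59.8. The list thus spanned strong and weak signals.

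Maternal-effect genes, whose product the oocyte must supply for the embryo to develop, had 13 bright and 0 dark members of 29. Beyond Spin1 and Dppa3 these included Ctnnb1, the adhesion and Wnt signalling protein beta-catenin, at 3086 to 3789, and Nlrp5, the Mater protein of the subcortical maternal complex, at 1079 to 1257. Zar1, another classic maternal-effect gene, had a signal of 36.1 to 105. Genes that act on maternal mRNA were similar as a group, with 16 bright and 1 dark of 30. Btg4, the adaptor that brings the CCR4-NOT deadenylase to maternal mRNA, was the brightest of these at 4582 to 5320. Cnot6l, a catalytic subunit of that deadenylase, ranged from 2715 to 3817.

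Genes known to be activated at the 2-cell stage had the largest share of bright members among the lists of oocyte and early embryo genes, with 20 bright and 0 dark of 30. The list held 57 symbols, of which these 30 were measured. It includes genes outside the families restricted to this stage, such as Hspa8 and Ncl, so the share does not describe those families alone. Trim43a ranged from 3156 to 3888, Zfp352 from 2278 to 3433, Tcstv1 from 1915 to 2691 and Usp17la from 1172 to 2135. These belong to multicopy families of the 2-cell stage, so that each signal may come from several copies. The heat shock cognate Hspa8 ranged from 3288 to 4603 and the nucleolar protein Ncl from 2776 to 3474. By contrast Duxf3, a homeobox gene that activates many of these families in a short burst, was at 7.08 to 59.6, and the inducible heat shock genes Hspa1b and Hspa1a were at 201 to 891 and 178 to 418. Both maternal and embryonic transcripts were thus measured side by side, and an array cannot tell the origin of an mRNA that both genomes supply.

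Pluripotency regulators fell into distinct levels. Of 32 members 12 were bright and 1 was dark. Pou5f1, which encodes Oct4, had values of 1798, 1859 and 2112 in Oct4-MO controls and 1869, 2029 and 1947 in Ccna2-MO controls, and the groups overlapped. Klf4, one of the reprogramming factors, ranged from 1250.3 to 1774, Sall4 from 1683 to 2208 and the RNA-binding protein Lin28a from 1476 to 2142. Sox2, the partner of Oct4, was at 80.4 to 113, and Nanog, which acts in the inner cell mass, at 7.06 to 36.3. Genes of the first differentiated lineages spanned strong and weak signals. Yap1, the Hippo pathway coactivator, ranged from 4447 to 5477, whereas its DNA-binding partner Tead4 was at 27.6 to 272 and the trophectoderm factor Cdx2 at 17.4 to 26.8. Of 16 trophectoderm regulators 2 were bright and 3 dark, near the 11.7% and 16.5% of all genes. Of 11 primitive endoderm regulators 0 were bright and 0 dark, and Gata4 was the brightest of them at 372 to 830. Transcripts of later cleavage and blastocyst epithelium had 3 bright and 6 dark members of 26 (11.5% and 23.1%).

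Cell division genes were prominent. Of 57 cyclins and mitotic regulators 28 were bright and 0 dark. Cdca8, a subunit of the chromosomal passenger complex, ranged from 4542 to 5807, Mki67 from 3728 to 4265 and Cdk1, the mitotic kinase, from 1923 to 3557. Ccna2 had values of 3293, 2969 and 3259 in Oct4-MO controls and 3949, 3444 and 4222 in Ccna2-MO controls, so the groups did not overlap. Its log2 difference was 0.28 (standard error 0.094), with an adjusted p of 0.26 from limma. Cytosolic ribosomal proteins had the largest share of bright members of all lists, with 34 of 49. Of 22 histone variants and histone chaperones 12 were bright, of 24 heat shock and chaperone genes 13, and of 44 spliceosome proteins 21.

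**Figure D2:**
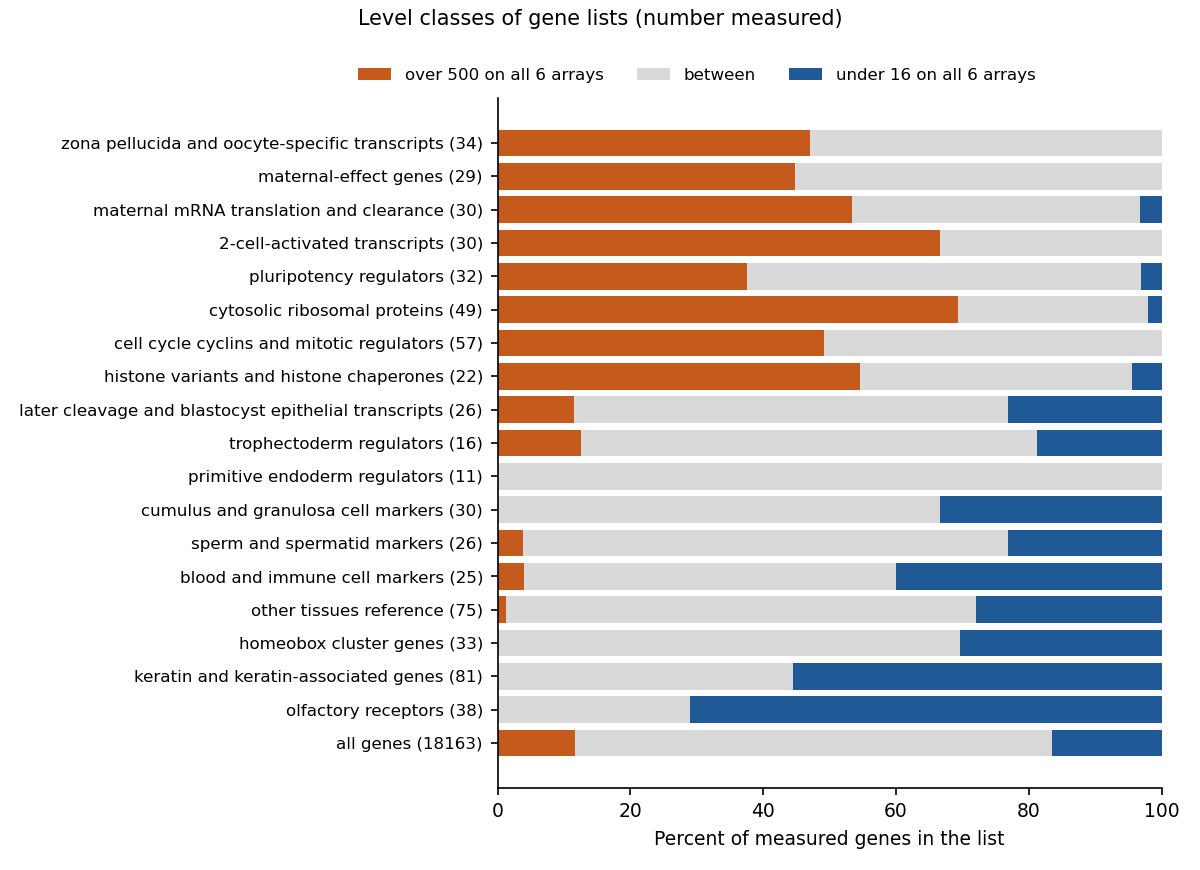
Share of the measured genes of 18 lists, and of all genes, that were over 500 on all 6 uninjected arrays (orange), under 16 on all 6 (blue) or between (grey), with the number measured in brackets. Lists of the oocyte, the 2-cell stage, pluripotency, ribosomes and cell division have 37.5% or more bright members. The lists of cumulus, sperm, blood and other tissue genes have at most 1 bright gene each.

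Dark genes were most frequent in families of specialised tissues. Of 38 olfactory receptors 27 were dark and 0 bright, of 81 keratin and keratin-associated genes 45 were dark and 0 bright, and of 33 homeobox cluster genes 10 were dark and 0 bright. Of 75 reference genes of other tissues 21 were dark and 1, the neurofilament gene Nefl, was bright, at 548 to 1121. Of 25 interferon response genes 8 were dark and 0 bright. Immediate early genes had 1 bright and 1 dark member of 26, against 11.7% and 16.5% of all genes. Their median level was 63.8, against 47.1 for all genes. The bright member was Jund, at 1393 to 2481, and the dark one Fos, at 1.03 to 10.0.

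The embryos had been freed of cumulus cells, and the markers of other cells were examined to check the label. Of 30 cumulus and granulosa cell markers 0 were bright and 10 dark. The cumulus matrix genes Has2, Tnfaip6 and Ptx3 were at 5.77 to 28.8, 5.47 to 38.8 and 4.31 to 13.5. The brightest of the list were the receptor gene Amhr2, at 363 to 966, and the gap junction gene Gja1, at 271 to 761, and oocytes and embryos also express Gja1. The summed signal of the list was 1325 to 1657 in Oct4-MO controls and 1369 to 1961 in Ccna2-MO controls. Of 26 sperm and spermatid markers 6 were dark and 1 bright, the centrosome and sperm tail gene Odf2, at 679 to 1039. The sperm chromatin genes Prm1 and Prm2 were at 115 to 182 and 4.70 to 41.3, and Prm2 had group means of 33.4 and 6.64 (adjusted p = 0.13 from limma), with summed signals of the list of 1467 to 1593 and 1213 to 1557. Of 25 blood and immune cell markers 10 were dark and 1 bright. This was Hba-a2, an alpha globin gene, with 1544, 1585 and 1876 in Oct4-MO controls and 1827, 1989 and 2603 in Ccna2-MO controls. Its paralog Hba-a1 was at 4.58 to 21.0 and the beta globin gene Hbb-b2 at 6.60 to 18.1.

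Bright and dark genes also differed in the sequence of their promoters. The promoter was taken as 250 bases before to 50 after the start site given by RefSeq for mouse assembly GRCm38.p6, with the first listed start for genes that have several. It was matched by symbol for 1769 of the 2126 bright genes, 2254 of the 3002 dark genes and 14426 of all genes measured. The median promoter held 25 CG dinucleotides and 62.7% G and C in bright genes, 17 and 58.7% in all measured genes, and 5 and 51.8% in dark genes. The 6 letters TATAAA, on either strand, were in 6.61% of the promoters of bright genes, 17.3% of those of dark genes, 9.88% of those of all measured genes and 14.2% of all 27025 genes with a listed promoter. The oocyte-specific list went against this order. Its 27 matched promoters had a median of 5 CG, like those of dark genes, although 16 of its 34 genes were bright. The 25 matched promoters of the 2-cell list had a median of 12, and the 43 of the ribosomal protein list a median of 22. These are descriptions of the listed windows, with no test.

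The stretch of 30 bases before the start site that holds the most CG is shown for the brightest matched gene of 4 lists, with CG in capitals, to show how far apart promoters of bright genes can lie. Spin1 (chr13:51100792-51100821, plus strand) has 51 CG in its 300-base promoter and Rpl13a (chr7:45128834-45128863, minus strand) has 27. Trim43a (chr9:88580666-88580695, plus strand) and Omt2b (chr9:78327780-78327809, plus strand) have 1 each. The fifth sequence is from Oog3 (chr4:144162663-144162692, minus strand), an oocyte-specific gene with a signal of 2755 to 3482, and has TATAAA in capitals, starting 29 bases before the start site.
Spin1: CGtcCGgCGgCGcCGggCGcCGgggCGgCG
Rpl13a: CGcctCGatagaCGCGcactcacCGcttCG
Trim43a: ggacagcctatacagagaaaccctgtctCG
Omt2b: CGgataagaaaatcctcagaggttgtgtgg
Oog3: agctgaaaattaTATAAAgggtcatagcag

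Oct4-MO controls resembled each other more than they resembled Ccna2-MO controls, while the correlations among Ccna2-MO controls reached into the range of those across experiments. Across all probe sets on the log2 scale, Pearson's r was 0.961 to 0.966 between the 3 pools of the Oct4-MO experiment, 0.951 to 0.959 between those of the Ccna2-MO experiment and 0.944 to 0.953 between pools of different experiments. These correlations are over probe sets, which are not independent. In the brighter part of the array, which held the 22468 probe sets of highest mean log2 value, 91.0 to 92.4% of the probe sets lay within 2-fold between pools of the Oct4-MO experiment, 87.0 to 89.6% between pools of the Ccna2-MO experiment and 83.5 to 87.0% across experiments. The SD of a probe set within a group had a median of 0.33 on the log2 scale in this part, and 0.11 to 0.83 from the 5th to the 95th percentile.

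In the brighter part, 214 genes had an SD within groups of over 1 on the log2 scale, and the 10 of largest spread are named here. Art5, an ADP-ribosyltransferase gene, had values of 15.7, 2.95 and 343 in Oct4-MO controls and 347, 3.94 and 47.4 in Ccna2-MO controls. Plec, which encodes the cytoskeletal linker plectin, was at 26.3, 40.6 and 73.7 and at 36.7, 21.8 and 689, with the last array alone high. Nnt, a mitochondrial transhydrogenase gene, was at 3.25, 211 and 27.9 and at 1.00, 75.8 and 2.11. In each of these a high array stood in one or both groups and the groups overlapped. Tecpr1, Tom1, Fcsk, Zfp335, Slc4a5, Sema3e and Zfp516 completed the 10 genes, with SDs of 1.55 to 1.63 on the log2 scale.

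For the comparison of the experiments, log2 was taken of the value plus 16, and the 3 arrays of the Ccna2-MO experiment were set against the 3 of the Oct4-MO experiment with limma. A positive difference means a higher value in Ccna2-MO controls. No probe set passed a Benjamini-Hochberg adjusted p of 0.05: 0 of 44937 were called in either direction (0%), with a smallest adjusted p of 0.058. An unadjusted p under 0.05 was found for 6358 probe sets (14.1%), of which 3360 were higher (7.48%) and 2998 lower (6.67%). On the brightest probe set of each gene there were 1419 higher genes (7.81%) and 1402 lower genes (7.72%). With the 6 injected arrays added to the same model, which gives a common variance for the 4 groups, 28 probe sets were called higher (0.0623%) and 13 lower (0.0289%). That model has no term for embryo collections shared by injected and uninjected pools. The uninjected groups did not overlap for any of these 41, against 21.3% of all probe sets without overlap. The calls came from the same values, so this adds no support to them. Most differences were small. In the brighter part of the array, 95.1% of the probe sets differed by less than 1 on the log2 scale, and the median size of the difference was 0.31, against a median standard error of 0.28.

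**Figure D3:**
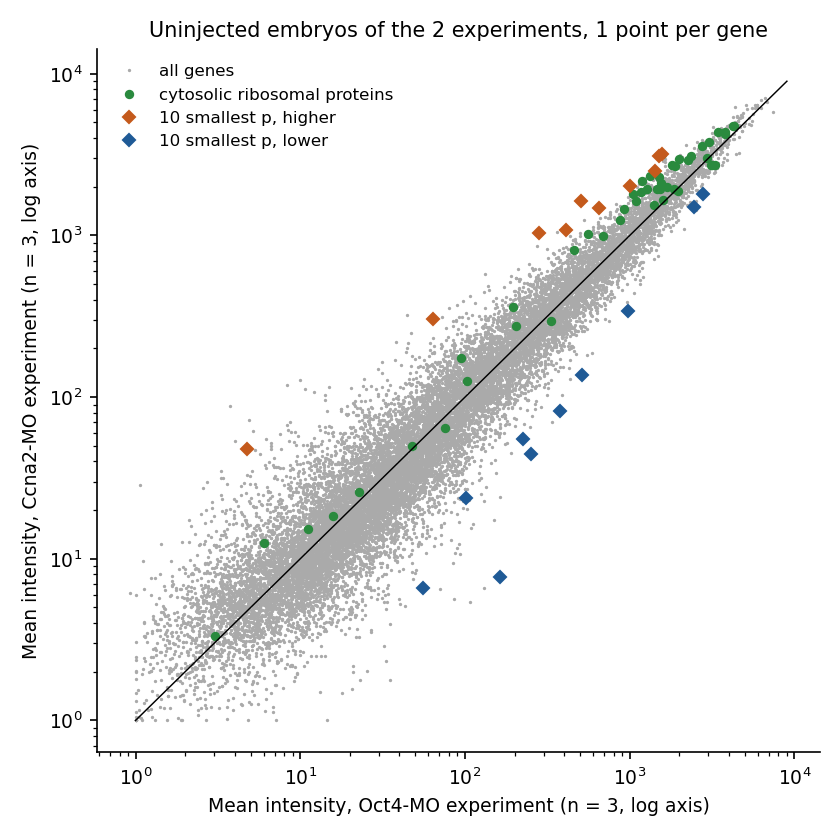
Mean intensity of each gene in the uninjected pools of the Oct4-MO experiment (x axis, log scale, n = 3) and the Ccna2-MO experiment (y axis, log scale, n = 3), with the line of equal values. Most genes lie along the line, the 10 genes of smallest p in each direction stand off it, and cytosolic ribosomal proteins lie mostly above it, 43 of 49 with a difference above 0.

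Since none passed, the 10 genes of smallest p in each direction are described, and none of them passed the test in the 6 arrays. On the higher side they included genes of energy supply, transcription and the cell cycle. Raver1, a cofactor of the splicing regulator PTB, had values of 449, 511 and 565 in Oct4-MO controls and 1596, 1792 and 1517 in Ccna2-MO controls. The log2 difference was 1.66 (standard error 0.15, adjusted p = 0.058 from limma). Atp5g1, the c subunit of the mitochondrial ATP synthase, was at 262, 281 and 296 and at 1030.2, 1152 and 939.5, a difference of 1.83 (standard error 0.17, adjusted p = 0.058). Both groups of 3 lay far apart in these genes. Atp5b, the catalytic beta subunit of the same enzyme, was at 959, 943 and 1116 and at 2081, 2133 and 1862, a difference of 1.00 (standard error 0.12, adjusted p = 0.083).

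Ube2c, the ubiquitin-conjugating enzyme of the anaphase-promoting complex, was at 1340.1, 1458 and 1689.9 in Oct4-MO controls and 3079, 3096 and 3133 in Ccna2-MO controls, a difference of 1.05 (standard error 0.11, adjusted p = 0.058). Taf4b, a germ cell variant of a TFIID subunit, was at 390.04, 425 and 422 and at 1029, 1149 and 1069 on its brightest probe set (difference 1.36, standard error 0.15, adjusted p = 0.063). Its other probe sets differed by 0.59 and 0.25. Rplp2, a protein of the ribosomal stalk, was at 1626, 1372 and 1727 and at 3137, 2775 and 3667 (difference 1.01, standard error 0.13, adjusted p = 0.090). Grm2, Gm839, Ppp1r16a and Sybu were the other genes on this side, with differences of 1.19, 0.82, 1.98 and 1.62. The other probe set of Ppp1r16a differed by 0.57. Sybu was low in both groups, at 3.43 to 6.98 and 41.6 to 53.5.

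On the lower side, several genes had a clear signal in Oct4-MO controls and a weak one in Ccna2-MO controls. Gria2, an AMPA glutamate receptor subunit, was at 257, 238 and 256 in Oct4-MO controls and 37.9, 52.6 and 43.5 in Ccna2-MO controls, a difference of -2.14 (standard error 0.24, adjusted p = 0.070 from limma). Tmprss2, a transmembrane serine protease, was at 427, 345 and 364 and at 82.1, 92.6 and 70.1 (difference -2.02, standard error 0.23, adjusted p = 0.073). Paqr5, a membrane progestin receptor, was at 503, 472 and 563 and at 114, 175 and 121 (difference -1.81, standard error 0.23, adjusted p = 0.085). In all 3 genes the lowest array of the Oct4-MO experiment lay at least 2-fold above the highest of the Ccna2-MO experiment. For each of the 3, the other probe sets of the gene were weak, with group means of 2.71 to 33.7, and the probe sets of Tmprss2 and Paqr5 carry the array's suffix for probes that may match several transcripts. The brightest probe sets of Ppp1r16a above and Eml5 below carry such a suffix too.

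Rgcc, a regulator of the cell cycle, was at 107, 147 and 233 in Oct4-MO controls and at 2.71, 9.55 and 10.8 in Ccna2-MO controls (difference -2.87, standard error 0.33, adjusted p = 0.074 from limma). It was the 1 probe set that was over 100 on every array of one experiment and under 16 on every array of the other; in the opposite direction there were 0. Another probe set of Rgcc differed by 0.28, with group means of 32.6 and 42.9. Actc1, the cardiac alpha actin, was at 63.3, 60.2 and 44.1 and at 8.60, 2.30 and 8.77 (difference -1.67, adjusted p = 0.11). Map4 and Eml5, which bind microtubules, differed by -0.63 and -0.70 on their brightest probe sets. The next brightest probe set of Map4 had group means of 951 and 942, and a weak one of Eml5 went the other way, with 21.5 and 45.5. Fbxl19, Msi2 and Flrt3 differed by -1.47, -1.76 and -1.56. Other probe sets of Msi2 differed by -0.69 to 0.30, and the other one of Flrt3 by -0.24.

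Probe sets of a gene could disagree. Wee2, the oocyte kinase that holds back Cdk1, was chosen after its values were seen. Its probe set of smallest p had group means of 3015 in Oct4-MO controls and 875 in Ccna2-MO controls (adjusted p = 0.058 from limma) and carries that same suffix, whereas its brightest probe set by mean log2 value was at 1637 and 1638.

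The injected arrays show which of these differences recurred on other arrays of the same experiments. The labels state that the injected embryos were handled in parallel with the uninjected embryos of their number, so these arrays share embryo collections with the uninjected ones, and their contrast of Ccna2-MO with Oct4-MO also holds the effects of both morpholinos. The labels give a dose of 0.6 mM for both, whereas the study's supplement lists a higher dose for Ccna2-MO, so the dose of Ccna2-MO is not settled. Of the 6358 probe sets at an unadjusted p under 0.05 in the uninjected arrays, 77.5% had the same direction in the injected arrays, as did 61.7% of all probe sets and 59.0% of those with a larger p. In the injected arrays 0 probe sets passed the adjusted p of 0.05, and 5729 had an unadjusted p under 0.05 (12.7%). Of the 33 probe sets with an adjusted p under 0.10 in the uninjected arrays, 30 had the same direction.

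In the injected arrays 18 of the 20 genes had the same direction, 10 of 10 on the higher and 8 of 10 on the lower side. Gria2 was at 388, 195 and 284 in Oct4-MO embryos and at 69.0, 51.7 and 44.7 in Ccna2-MO embryos. Paqr5 was at 724, 758 and 614 and at 143, 115 and 126. Raver1 was at 598, 679 and 631 and at 1096, 1472 and 1175. In these genes the injected groups did not overlap, though the means of Raver1 lay closer together than in the uninjected pools. The exceptions were Rgcc and Msi2. Rgcc was at 8.97, 18.9 and 7.93 in Oct4-MO embryos and at 217, 2.83 and 61.9 in Ccna2-MO embryos, with overlapping groups.

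**Figure D4:**
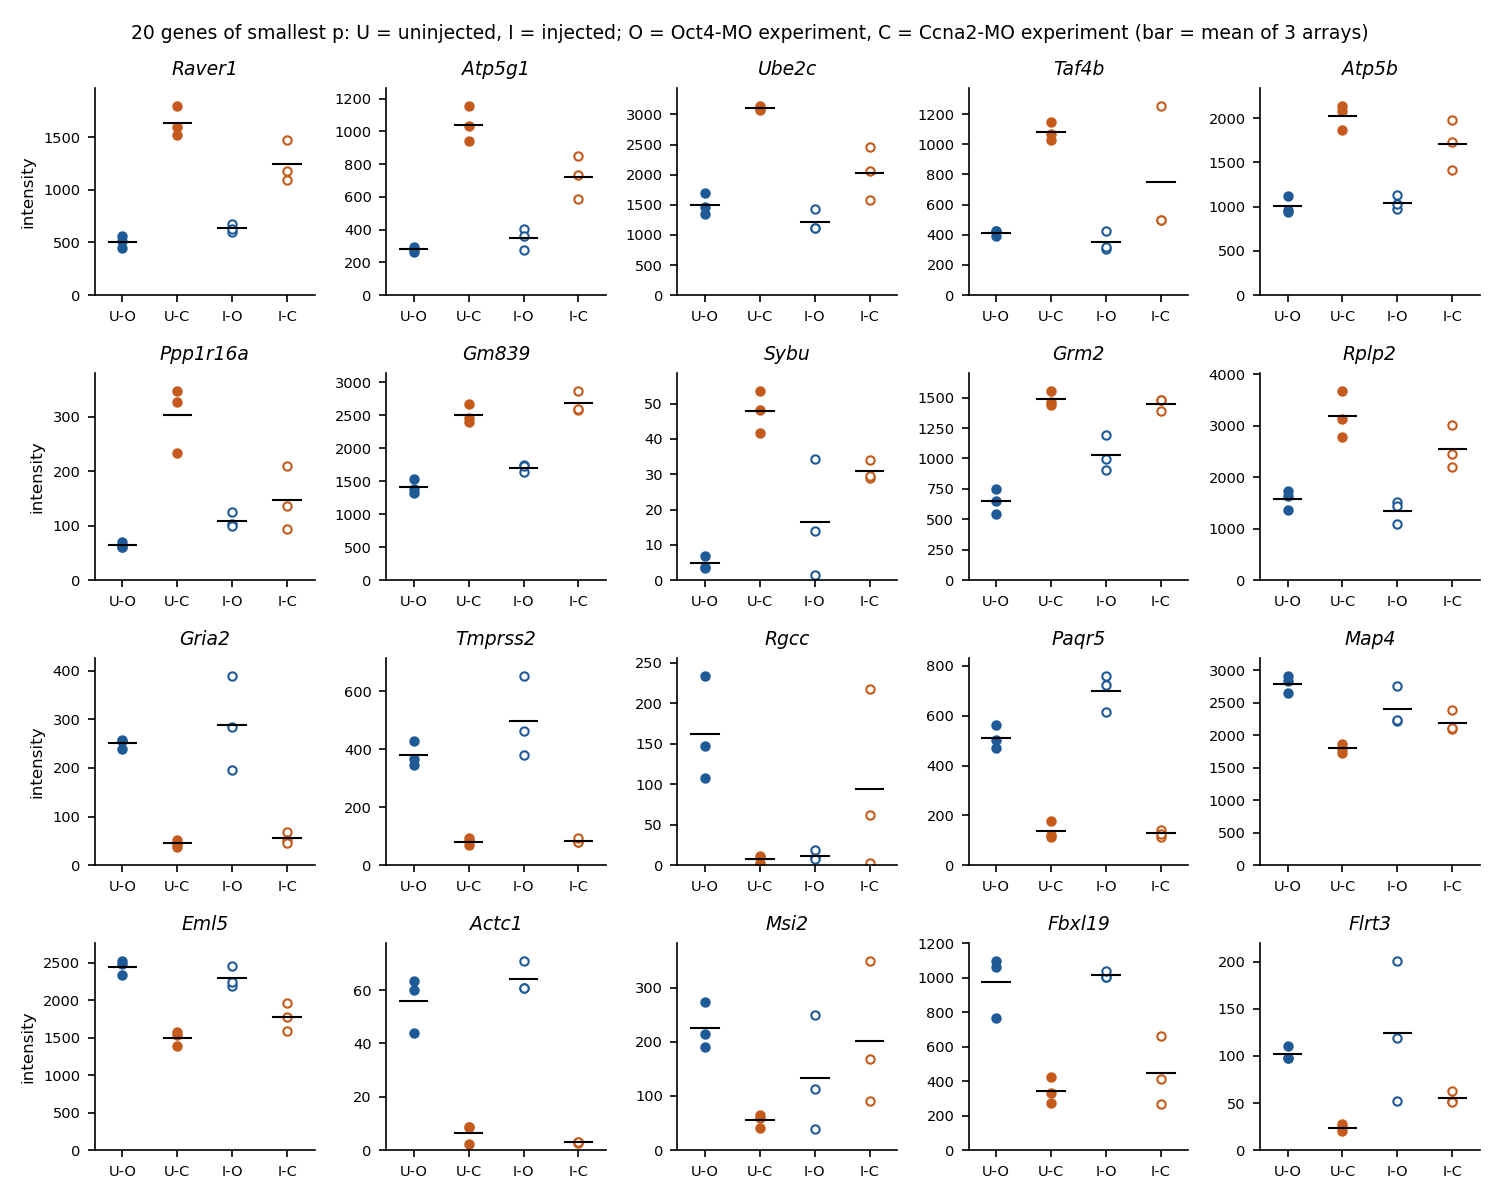
Deposited intensity (linear axes from 0) of the 20 genes of smallest p in uninjected (filled) and injected (open) embryos of the Oct4-MO experiment (blue) and the Ccna2-MO experiment (orange), 1 point per array and a bar for each mean of 3. The first 10 genes were higher and the last 10 lower in the uninjected pools of the Ccna2-MO experiment, and 18 of 20 had the same direction in the injected arrays.

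Among the gene lists, cytosolic ribosomal proteins stood farthest above all genes. The median log2 difference of the 49 genes was 0.33, against -0.014 for all 18163 genes, and 43 were above 0. Bright genes as a class leaned the same way, with a median of 0.057, 1265 above 0 and 861 below. Of the 34 bright ribosomal protein genes 30 were above 0. At an unadjusted p under 0.05, 21 were higher and 1 lower, against 7.81% and 7.72% of all genes, while 0 passed the adjusted p of 0.05 in limma. Groups did not overlap for 19 higher genes and 1 lower gene, against 10.5% and 12.3% of all genes (10.3% and 10.9% of all probe sets). Rps24 was at 2156, 1693 and 2124 in Oct4-MO controls and at 2913, 2832 and 3114 in Ccna2-MO controls, a difference of 0.57 (standard error 0.11, adjusted p = 0.13). Rpl19 was at 1148, 892 and 1103 and at 1612, 1655 and 2174 (difference 0.78, standard error 0.16, adjusted p = 0.13). The exception among the small p was Rpl27, with group means of 3274 and 2738. The pools were not alike in this list. Relative to the mean of the 6 arrays, the median gene stood at -0.092, -0.29 and -0.12 in Oct4-MO controls and at -0.0045, 0.099 and 0.46 in Ccna2-MO controls, so the last pool was the highest. Without that pool the median difference was 0.22. In the injected arrays the median was 0.36, with 41 of 49 above 0. Of the 3 probe sets for 18S rRNA, the 5' one was at 5541 to 5729 in Oct4-MO controls and at 6147 to 6299 in Ccna2-MO controls, and the 3' one at 7733 to 8007 and 8233 to 8596. The middle one overlapped, at 8880 to 9134 and 9069 to 9364. The ratio of 3' to 5' signal of Gapdh, a sign of RNA quality, overlapped, at 2.97 to 3.84 and 3.06 to 3.33. A control probe set for B2 repeats lay apart, at 1045 to 1123 in Oct4-MO controls and 696 to 895 in Ccna2-MO controls. Another B2 control and the B1 control overlapped. Their part in the result was not tested.

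Other lists of the protein machinery lay on the same side with smaller medians, beside a median of 0.057 for all bright genes. Translation initiation and elongation factors had a median of 0.19 (0.10 without the third pool of the Ccna2-MO controls), with 41 of 56 above 0 and 14 higher and 5 lower at an unadjusted p under 0.05. Eif5, which triggers GTP hydrolysis at the start codon, had group means of 3307 and 4221, while Eif3f had 2082 and 1539. Proteasome subunits had a median of 0.26, with 27 of 37 above 0, and 0.11 in the injected arrays, with 21 of 37 above 0. Of the 37, 4 were higher and 2 lower at an unadjusted p under 0.05, which is near the 7.81% and 7.72% of all genes. Chaperones of the CCT complex and of mitochondrial import had a median of 0.23, with 20 of 27 above 0, but the median was -0.048 in the injected arrays. Of 90 respiratory chain and ATP synthase subunits 10 were higher and 5 lower, also near the shares of all genes, with a median of 0.10. Histone variants and histone chaperones had a median of 0.11, with 18 of 22 above 0, and DNA methylation and chromatin modifiers a median of 0.12, with 10 higher and 3 lower of 60. Tet3, the oxidase of the methylated paternal genome, had group means of 432 and 735, and the remodelling ATPase Smarca5 3202 and 4086.

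The lists that characterise the stage differed little as groups. The median was -0.063 for 2-cell genes, -0.0014 for oocyte-specific genes, 0.074 for maternal-effect genes and 0.021 for cyclins and mitotic regulators. Individual members differed more, in both directions. Spz1 had group means of 1211 and 551, Nlrp4f 1488 and 742, and Aurkc, the Aurora kinase of germ cells, 1153 and 498. Gpr3, the receptor that keeps the oocyte in meiotic arrest, had 662 and 1289, and Padi6, a component of the oocyte lattices, 149 and 308. Of the 2-cell list 5 of 30 were higher and 5 lower at an unadjusted p under 0.05, and of the maternal-effect list 7 of 29 were higher and 3 lower, beside 7.81% higher and 7.72% lower of all genes.

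Primitive endoderm regulators had the lowest median, -0.44, with 10 of 11 below 0, and -0.51 in the injected arrays, with 3 of 11 above 0. Their signals were weak. Gata6, a transcription factor that drives this lineage, had group means of 49.3 and 24.1 and Foxa2 24.4 and 9.04, while Gata4, the brightest, went the other way with 460 and 685. At this level the difference depends on the constant added before log2, with a median of -0.84 when 1 was added and -0.17 when 64 was added. It was -0.26 without the first pool of the Oct4-MO controls. Immediate early genes had a median of -0.17, with 18 of 26 below 0, and imprinted transcripts a median of -0.14. The lists of cumulus, sperm and blood markers had medians of 0.013, -0.050 and -0.0087. Of 13 sex-linked transcripts 0 had an unadjusted p under 0.05, against 15.5% of all genes. A list this short cannot show that the pools were alike in sex. Xist, the X inactivation RNA, was at 77.7 to 198 across the 6 mixed pools.

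**Figure D5:**
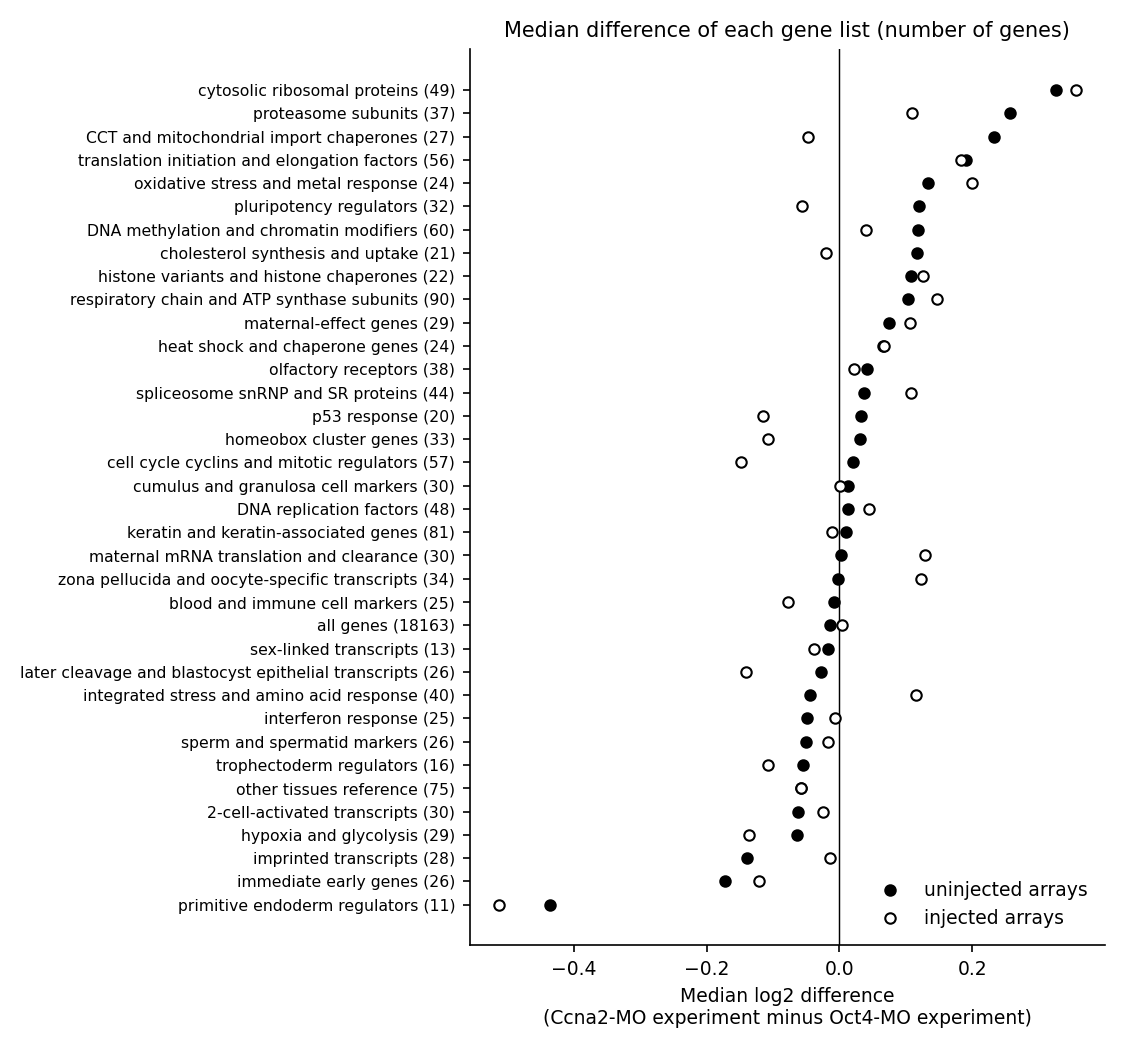
Median log2 difference of 35 gene lists and of all genes between the experiments, Ccna2-MO minus Oct4-MO, in the uninjected arrays (filled) and the injected arrays (open), with the number of genes in brackets. Cytosolic ribosomal proteins have the highest medians, 0.33 and 0.36, and primitive endoderm regulators the lowest, -0.44 and -0.51.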

How the data were processed

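Groups were taken from the labels. The authors hybridised biotin-labelled cDNA to Affymetrix arrays, normalized them with dChip (version and options: not given in the sources used here) and deposited 1 linear intensity per probe set. Of 45001 probe sets, 64 controls were left out. By the platform annotation 34849 probe sets had 1 symbol, 928 several and 9160 none, and 0 symbols changed by gene ID. Values were analysed as log2(value + 16), which understates differences of dim probe sets, with R 4.3.3 and limma 3.58.1 (intensity trend, Benjamini-Hochberg over 44937). Named genes were the 20 brightest, the 10 of smallest p per direction since none passed, the 4 brightest and 4 of smallest p per list, the 10 of largest spread, both morpholino targets and bright markers of other cells; further list members were chosen after their values were seen. The samples described, members, lists and rules were chosen with earlier results of these data known. The test was tried on simulated data for the uninjected comparison, with independent normal noise and changes placed only in the brighter part of the array. It recovered 5 of 67 probe sets changed 2-fold (7.46%), 42 of 67 changed 4-fold (62.7%) and 52 of 66 changed 8-fold (78.8%), and made 5 false calls. These shares do not cover dimmer probe sets. The number of arrays limits the precision.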

Additional observations from a re-analysis of the deposited data

How the results depend on the processing

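The count of probe sets called, 0, stayed 0 with 64 added before log2, without the intensity trend, with quantile normalization, median centring or array weights, with the methods' t-test, with a fold of at least 1.5 and without any of the 6 arrays (0 to 0). It was 11 with 1 added, 27 in the brighter part of the array and 41 with all 12 arrays. At an adjusted p under 0.10, a threshold added after seeing the data, it was 33. The genes called numbered 4, 13, 20 and 15 under these settings, and 1 with probe sets averaged per gene; without an array they were 0 to 0. The 6358 probe sets at an unadjusted p under 0.05 were 4103 in the brighter part, where fewer were tested, 3905 with a fold of at least 1.5, and 4938 to 6461 without 1 array. The replicate numbers of the 2 experiments only share a number: deviations of same-numbered pools correlated at 0.015, 0.064 and -0.00042, and with the replicate block 0 probe sets were called and 5888 had an unadjusted p under 0.05. The same direction in the injected arrays was found for 73.9 to 78.2% without 1 array. Dark probe sets numbered 4270 under 8 and 19016 under 32, and 11938 to 12127 without 1 array; bright ones 5677 over 250, 1789 over 1000, and 3546 to 3592 without 1 array. The median of ribosomal proteins was 0.22 to 0.41 without 1 array. That of translation factors was 0.090 with quantile normalization, 0.059 with probe sets averaged per gene and 0.10 to 0.25 without 1 array; that of proteasome subunits 0.16 with 64 added, 0.18 with quantile normalization and 0.19 to 0.26 without 1 array; that of primitive endoderm regulators -0.84 with 1 added, -0.17 with 64 added, -0.24 in the brighter part, -0.26 with probe sets averaged and -0.41 to -0.26 without 1 array. With probe sets averaged per gene, 6 genes changed sign: Rest (-0.022), Tfap2c (0.20), Hsd17b7 (0.075), Mcm2 (0.072), Tomm7 (0.15) and Srsf1 (-0.049). The causes were not tested.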
